A study of Chlorocebus sabaeus with 45 samples.

Results

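The 10 genes described here form the core of the circadian clock and its first output: the activators CLOCK and ARNTL (now also named BMAL1), the repressors PER1, PER2, PER3, CRY1 and CRY2, the nuclear receptors NR1D1 and NR1D2, and the output factor DBP. Their rows were picked out by gene symbol, and all 10 were found among the 33994 gene rows of each whole-blood expression table and among the 18753 genes that were tested. Blood came from 15 wild-born juvenile male vervet monkeys (Chlorocebus sabaeus), one male per troop, each sampled 3 times, which gave 45 RNA-seq libraries. The study used relocation and single housing in quarantine as a model of psychosocial stress.

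Day 0 blood was drawn in the field right after trapping, under ketamine and xylazine. Day 3 and day 14 blood was drawn in the quarantine facility from the same animals, now housed alone, under dexmedetomidine and midazolam. All 45 samples come from animals that were relocated, so that in comparisons with day 0 time since capture, place, housing and sedative cannot be told apart. Days 3 and 14 share place, housing and sedative. The hour at which each sample was drawn is not given in the sources used here. Because clock transcripts cycle over the day, a difference in the hour of sampling cannot be told apart from a difference between the days either. The labels give the last time point as day 14 and the series' design text as a day later.

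The clock is a feedback loop of transcription that runs in nearly every cell. CLOCK and ARNTL pair on E-box elements and drive the PER and CRY genes, whose proteins return to the nucleus and block that pair, while NR1D1 and NR1D2 (REV-ERB alpha and beta) repress ARNTL in a second loop. DBP is a transcription factor driven directly by the E-box pair. White blood cells carry this loop, PER1 also answers to glucocorticoids, and the loop is known to time the release and trafficking of leukocytes.

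Levels are given as scaled FPKM, the deposited fragment number per kilobase of gene and per library size, divided by a factor that evens out composition between libraries (trimmed mean of M values, TMM). Between 13216275 and 31469332 fragments per library fell on genes, with medians of 22963964, 22754349 and 22758493 on days 0, 3 and 14. Changes are log2 differences within animals from limma, called at an adjusted p (Benjamini-Hochberg over all tested genes) under 0.05. With scaling, the typical gene moved by a median log2 change of 0.01 from day 0 to day 3 and −0.02 from day 0 to day 14. Without it, these medians were −0.03 and −0.36, so day 14 changes are relative to the typical gene. Every marker gene found for neutrophils, monocytes, T, B and NK cells, red cells and platelets was above 0 in at least 1 library, as whole blood should show. In whole blood, fewer cells of a type and less RNA per cell cannot be told apart.

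On day 3 relative to day 0, ARNTL fell while PER1 and CRY2 rose, so that 3 of the 10 clock genes (30%) passed the test, against 19.2% of all tested genes (10.1% up and 9.04% down). On day 14 relative to day 0, ARNTL, CLOCK and PER2 fell and no clock gene rose, again 3 of 10, against 44.0% of all genes (23.0% up and 21.0% down). Between day 3 and day 14, PER2 and CRY2 fell, 2 of 10 (20%), against 23.7% of all genes (13.9% up and 9.76% down). The median log2 change of the 10 genes was 0.09, −0.08 and −0.17 in these comparisons, beside 0.01, −0.02 and −0.02 for all tested genes. The share of clock genes called was above that of all genes on day 3 and below it in the other comparisons, and with 10 genes each call weighs 10%. In all, 5 of 10 clock genes were called at least once, beside 53.1% of all tested genes, and PER3, CRY1, NR1D1, NR1D2 and DBP in none of the comparisons. For every clock gene the ranges of the 15 animals overlapped between each pair of days, as they did for nearly all tested genes (0.00533%, 0.08% and 0% did not overlap in the 3 comparisons). Without scaling between libraries, the split of all genes on day 14 relative to day 0 moved from 4316 higher and 3937 lower to 1742 higher and 9360 lower, and 8 of the 10 clock genes were then called, all lower. Between day 3 and day 14 the unscaled split was 933 higher and 8641 lower, beside 2616 higher and 1830 lower with scaling.

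**Figure D1:**
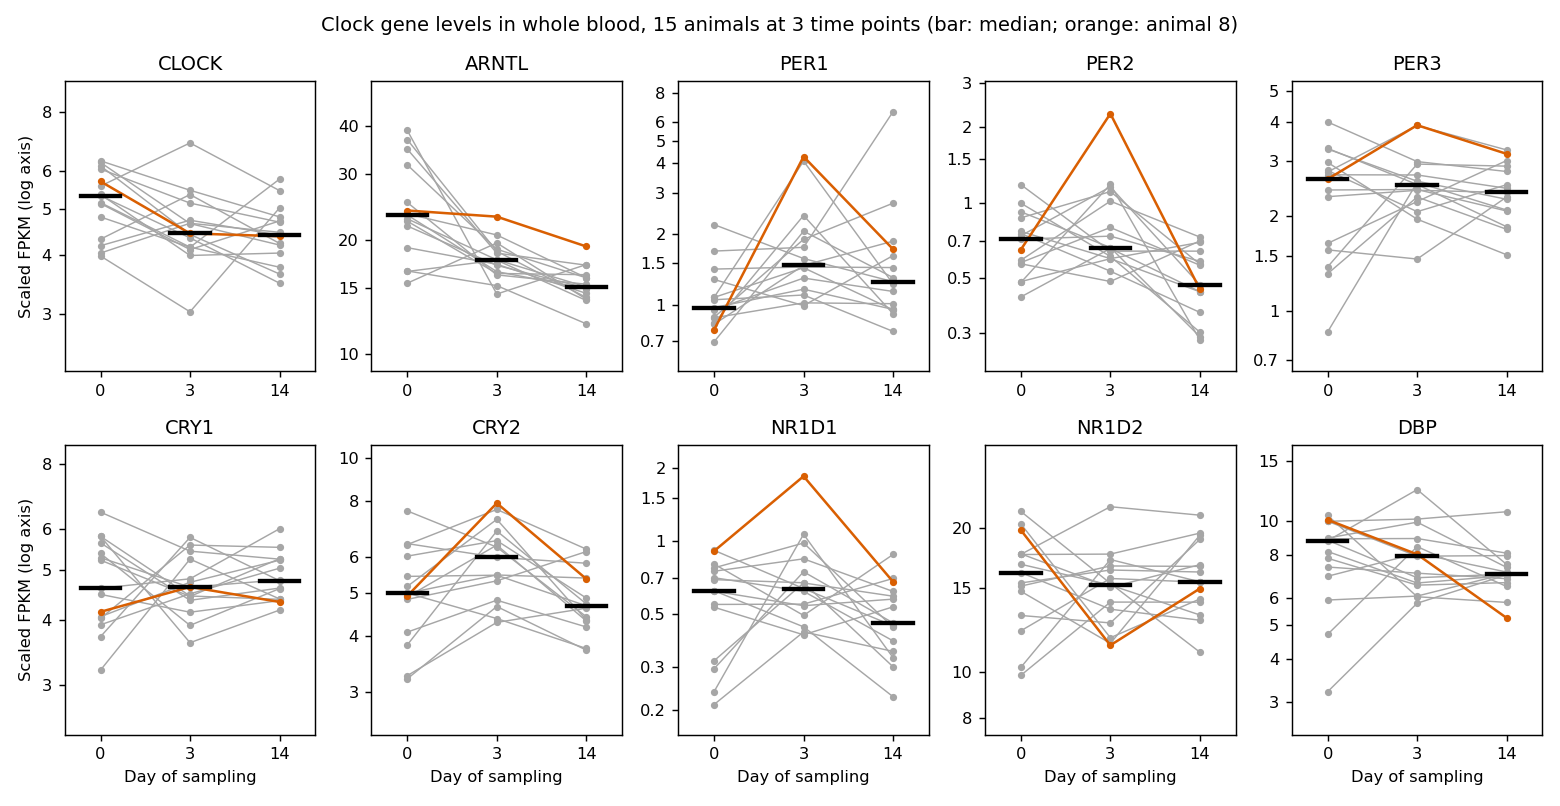
Scaled FPKM (log axis) of the 10 clock genes on days 0, 3 and 14. Each line joins the 3 samples of 1 animal, black bars mark the median of 15 animals and animal 8 is drawn in orange. ARNTL medians step down from 23.3 to 17.7 and 15.1, and animal 8 is highest on day 3 for 6 of the 10 genes (ARNTL, PER1, PER2, PER3, CRY2 and NR1D1).

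ARNTL, the partner that cells cannot replace in the activating pair, showed the most regular change of the 10 genes. Its scaled FPKM ran from 15.4 to 39.0 with a median of 23.3 on day 0, from 14.4 to 23.1 with a median of 17.7 on day 3, and from 12.03 to 19.2 with a median of 15.1 on day 14. The high end of the day 0 range was lost later, while the low ends lay close together. ARNTL was lower on day 3 than on day 0 in 13 of 15 animals, by a log2 change of −0.43 (SE 0.09, limma adjusted p = 0.00226). On day 14 it was lower in all 15 animals, by −0.64 (SE 0.09, limma adjusted p = 3.27e-06), a difference of −35.9%. Between day 3 and day 14 it was lower in 14 of 15 animals, with a log2 change of −0.22 (SE 0.09) that did not pass adjustment over all genes (limma adjusted p = 0.0897). Both changes from day 0 passed the test under all 10 planned settings that kept every animal and whichever animal was left out.

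The fall of ARNTL was measured in blood whose makeup also changed. Of the 9 neutrophil marker genes tested, 7 were called on day 3 and 8 on day 14, each of them lower than on day 0, with a median log2 change of −1.22 and −1.26. The summed scaled FPKM of the neutrophil list ranged from 364 to 6623 on day 0, from 141 to 1433 on day 3 and from 144 to 985 on day 14. The part of these markers in the fall of ARNTL was not tested, but the 3 animals with the highest neutrophil marker sums on day 0 (animals 7, 11 and 15) could be left out, a choice made after the values were seen. Without them ARNTL was lower by −0.26 on day 3 (limma adjusted p = 0.0342) and by −0.51 on day 14 (limma adjusted p = 3.41e-05). In the RefSeq gene table of another vervet assembly, ARNTL overlaps the span of 1 gene, BTBD10, and whether fragments were counted by strand is not given in the sources used here. BTBD10 was also lower, by −0.35 on day 3 (limma adjusted p = 0.00752) and −0.25 on day 14 (limma adjusted p = 0.0255) on the log2 scale. Its r with ARNTL was 0.43 after each day's mean was subtracted. The part of BTBD10 in the fall of ARNTL was not tested. The other 9 clock genes overlap no listed gene.

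CLOCK, the histone acetyltransferase that pairs with ARNTL, moved less. Its scaled FPKM ranged from 3.98 to 6.31 (median 5.33) on day 0, from 3.03 to 6.88 (median 4.43) on day 3 and from 3.48 to 5.77 (median 4.40) on day 14. The medians of both later days lay below that of day 0, within wide overlap. CLOCK was lower on day 14 than on day 0 in 11 of 15 animals, by −0.22 on the log2 scale (SE 0.08, limma adjusted p = 0.0340). On day 3 it was also lower in 11 of 15 animals, with a log2 change of −0.17 (95% interval −0.34 to −0.01) that did not pass after adjustment (limma adjusted p = 0.143). The day 14 call was lost when animal 1, 3, 6, 8, 9, 10, 12 or 14 was left out, and once RNA integrity entered the fit (−0.19, limma adjusted p = 0.225).

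**Figure D2:**
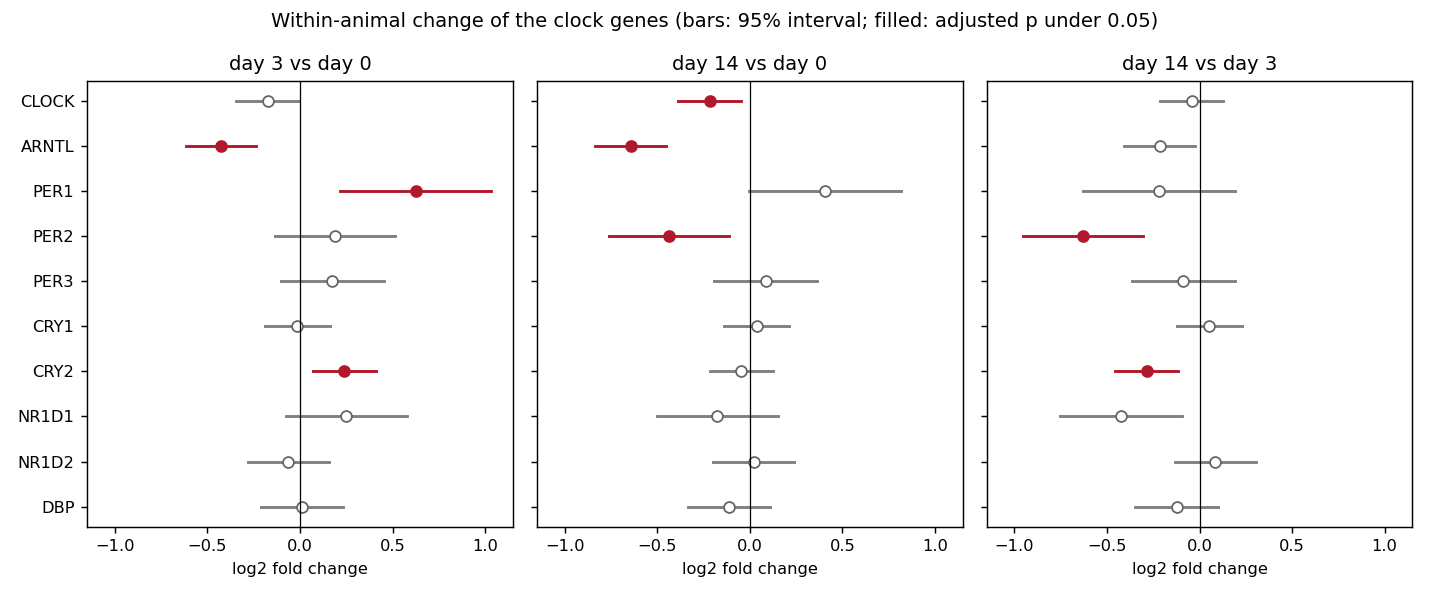
Log2 fold change of each clock gene within animals in the 3 comparisons, with 95% intervals from limma over 15 animals. Filled red points passed an adjusted p of 0.05: ARNTL (−0.43), PER1 (0.62) and CRY2 (0.24) on day 3, ARNTL (−0.64), CLOCK (−0.22) and PER2 (−0.44) on day 14 relative to day 0, and PER2 (−0.63) and CRY2 (−0.29) on day 14 relative to day 3.

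Of the period genes, PER1 was called on day 3, PER2 on day 14 and PER3 in no comparison. Differences between them were not tested. PER1, the repressor that is induced fastest by outside signals, ranged from 0.695 to 2.19 (median 0.972) on day 0, from 0.991 to 4.27 (median 1.47) on day 3 and from 0.770 to 6.65 (median 1.25) on day 14 in scaled FPKM. The highest day 3 values belonged to animals 8 (4.27) and 2 (4.09), and the highest day 14 value to animal 15 (6.65), with 2.71 as the next. PER1 was higher on day 3 than on day 0 in 13 of 15 animals, by 0.62 on the log2 scale (SE 0.20, limma adjusted p = 0.0271), which equals a rise by 54.1%. On day 14 it was higher than on day 0 in 11 of 15 animals, with a log2 difference of 0.41 (95% interval −0.00 to 0.81) that did not pass (limma adjusted p = 0.101). With RNA integrity as a covariate it was 0.70 and passed (limma adjusted p = 0.0436), and without scaling it was 0.01 (limma adjusted p = 0.962). The day 3 call was lost when animal 2, 3, 8 or 9 was left out. Without the day 3 library of animal 8 alone, the change was 0.53 (limma adjusted p = 0.0540). That library had the lowest correlation with its day's median library and the lowest RNA integrity number of the 45.

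PER2, which binds CRY proteins in the repressor complex, ranged in scaled FPKM from 0.420 to 1.18 (median 0.715) on day 0, from 0.484 to 2.27 (median 0.661) on day 3 and from 0.283 to 0.728 (median 0.469) on day 14. The day 3 maximum again came from animal 8, and the next animal lay at 1.18. PER2 was lower on day 14 than on day 3 in 13 of 15 animals, by −0.63 on the log2 scale (SE 0.16, limma adjusted p = 0.00613), and lower than on day 0 in 12 of 15 animals, by −0.44 (SE 0.16, limma adjusted p = 0.0259). From day 0 to day 3 it rose in 9 animals and fell in 6, with a log2 difference of 0.19 (95% interval −0.13 to 0.51). The day 14 call against day 0 was lost without animal 1 or animal 14, with a pseudocount of 1 (−0.19, limma adjusted p = 0.0586), and with RNA integrity as a covariate (−0.13, limma adjusted p = 0.688), and the call against day 3 was lost with that covariate (−0.47, limma adjusted p = 0.0585). The RNA integrity number was higher on day 14 than on day 0 in 13 animals and lower in none.

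PER3, the period gene with the smallest role in keeping the rhythm, was the highest of the 3 in blood. Its scaled FPKM ranged from 0.857 to 3.99 (median 2.63) on day 0, from 1.46 to 3.90 (median 2.52) on day 3 and from 1.51 to 3.25 (median 2.38) on day 14, and the low end of day 0 had no counterpart later. No comparison passed, with log2 differences of 0.17 (95% interval −0.10 to 0.45) on day 3 and 0.09 (−0.19 to 0.36) on day 14. Within each library, where scaling cancels, the log2 ratio of PER1 to PER2 of FPKM averaged 0.62 ± 0.62 at first (SD over 15 animals), 1.08 ± 0.45 on the middle day and 1.57 ± 0.79 on the last. That ratio was higher than on day 0 in 11 of 15 animals on day 3 and in 13 of 15 on day 14.

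CRY2 and CRY1 are the stronger repressors of the CLOCK and ARNTL pair, and CRY2 alone of them was called. CRY2 ranged in scaled FPKM from 3.21 to 7.61 (median 4.99) on day 0, from 4.29 to 7.92 (median 5.996) on day 3 and from 3.72 to 6.25 (median 4.67) on day 14, with the highest median on the middle day. It was higher on day 3 than on day 0 in 12 of 15 animals, by 0.24 on the log2 scale (SE 0.08, limma adjusted p = 0.0410), and lower on day 14 than on day 3 in 13 of 15, by −0.29 (SE 0.08, limma adjusted p = 0.0149). The rise on day 3 was lost when animal 1, 2, 4, 7, 8, 11, 13 or 15 was left out, under 5 of the 10 planned settings that kept every animal, and without animals 7, 11 and 15 together (0.21, limma adjusted p = 0.164). The fall after day 3 held whichever animal was left out and was lost in the fit without the animal as a replicate block (−0.29, limma adjusted p = 0.0666).

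CRY1 gave the smallest differences from day 0 of the 5 repressors on day 3. Its scaled FPKM ranged from 3.20 to 6.46 (median 4.604) on day 0, from 3.61 to 5.77 (median 4.62) on day 3 and from 4.18 to 5.998 (median 4.76) on day 14, with the widest range first. The log2 differences were −0.01 (95% interval −0.19 to 0.16) on day 3 and 0.04 (−0.14 to 0.21) on day 14 relative to day 0, so that larger changes in either direction lay outside these intervals. Without scaling between libraries CRY1 was lower on day 14 than on day 0, by −0.38 on the log2 scale (limma adjusted p = 0.0241). The log2 ratio of CRY2 to CRY1 within libraries averaged 0.07 ± 0.33 before relocation (SD over 15 animals), 0.33 ± 0.38 on the middle day and −0.01 ± 0.29 on the last, and was above its day 0 value in 10 of 15 animals on day 3 and above its day 3 value in 2 of 15 on day 14, with no test made of it.

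The nuclear receptors NR1D1 and NR1D2, which repress ARNTL, stood far apart in level and neither passed a test. NR1D1 ranged in scaled FPKM from 0.211 to 0.913 (median 0.621) on day 0, from 0.409 to 1.85 (median 0.635) on day 3 and from 0.227 to 0.877 (median 0.458) on day 14. These values rest on 10 to 150 fragments per library, the fewest of the 10 genes, and the day 3 maximum is animal 8, with the next animal at 1.06. NR1D1 was lower on day 14 than on day 3 in 11 of 15 animals, with a log2 difference of −0.42 (SE 0.16, 95% interval −0.75 to −0.10) just short of the threshold (limma adjusted p = 0.0522). Without animals 7, 11 and 15 that difference was −0.57 (limma adjusted p = 0.0217). NR1D2 ranged from 9.83 to 21.7 (median 16.1) on day 0, from 11.4 to 22.2 (median 15.2) on day 3 and from 10.99 to 21.3 (median 15.4) on day 14. The log2 differences of NR1D2 from day 0 were −0.06 (95% interval −0.28 to 0.16) on day 3 and 0.02 (−0.20 to 0.24) on day 14.

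DBP, the output factor that activates D-box genes, ranged in scaled FPKM from 3.21 to 10.4 (median 8.79) on day 0, from 5.79 to 12.4 (median 7.92) on day 3 and from 5.25 to 10.7 (median 7.03) on day 14. The log2 differences were 0.01 (95% interval −0.21 to 0.23) on day 3 and −0.11 (−0.33 to 0.11) on day 14, and 10 of 15 animals were lower on day 14 than on day 0. Animals 7, 11 and 15 had the lowest DBP of all animals on day 0 and its largest rises from day 0 to day 14. Without these animals the day 14 difference was −0.29 (limma adjusted p = 0.0167). They were chosen by their day 0 neutrophil markers after the values were seen. Leaving out the lowest day 0 values moves the difference down, so this fit cannot show whether DBP fell.

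On the deposited FPKM scale, which is per gene length and so allows genes to be ranked, the mean over 45 libraries was highest for ARNTL (19.9), followed by NR1D2 (16.4), DBP (8.21), CRY2 (5.63), CLOCK (5.01), CRY1 (4.94), PER3 (2.60), PER1 (1.54), PER2 (0.755) and NR1D1 (0.653). ARNTL lay above 82.5% of the tested genes in mean FPKM and NR1D1 above 25.6%. CLOCK and CRY1 did not differ beyond their spread between animals (two-sided exact sign-flip test on the mean log2 ratio of 15 animals, p = 0.922, Benjamini-Hochberg adjusted p = 0.922 over the 9 neighbouring pairs), and CLOCK was the higher in 21 of 45 libraries. Each of the other 8 neighbouring pairs differed (adjusted p between 0.000137 and 0.0455 in the same exact test), with the smallest ratio between CRY2 and CLOCK, 0.14 ± 0.23 on the log2 scale (SD, n = 15). The order pools the days and was not the same on each. On day 14 the mean deposited FPKM of NR1D2 (14.1) lay above that of ARNTL (13.1). On day 0 that of CLOCK (6.05) lay above that of CRY2 (5.96). These differences within a day were not tested.

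For most clock genes the animals differed more from each other on day 0 than on day 14. The SD of log2 levels between the 15 animals fell from 0.42 on day 0 to 0.17 on day 3 and 0.16 on day 14 for ARNTL, and the ratio of the day 0 to the day 14 SD, 2.61, was above that of 98.1% of tested genes. It fell from 0.46 to 0.31 and 0.22 for DBP, from 0.58 to 0.34 and 0.30 for PER3 and from 0.28 to 0.18 and 0.15 for CRY1. PER1 had an SD of 0.41, 0.62 and 0.74 on the 3 days. The last of these rests on animal 15, and without that animal's library it was 0.45, chosen after the values were seen. In all, 8 of the 10 clock genes had a larger SD on day 0 than on day 14, as did 57.9% of all tested genes, whose median SD was 0.43, 0.41 and 0.40 on the 3 days.

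**Figure D3:**
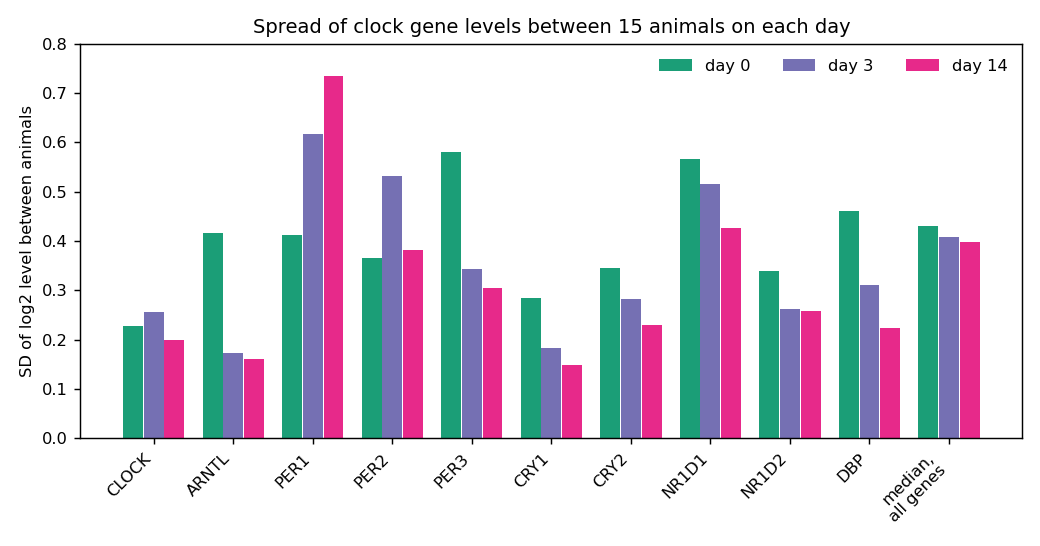
Standard deviation of the log2 level between the 15 animals on each day, for the 10 clock genes and as the median of all tested genes. ARNTL falls from 0.42 on day 0 to 0.16 on day 14, and the 0.74 of PER1 on day 14 was 0.45 without the library of animal 15.

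The day 0 extremes of ARNTL, NR1D2 and DBP lay in animals 7, 11 and 15, whose summed neutrophil markers that day were 4350, 6623 and 6591 scaled FPKM, against 364 to 1602 in the other 12. Their ARNTL was 39.0, 34.8 and 36.9, above the 15.4 to 31.6 of the other 12 animals. Their NR1D2 was 12.2, 10.2 and 9.83, below the 13.1 to 21.7 of the others, and their DBP was 5.91, 3.21 and 4.70, below 6.93 to 10.4. For CLOCK, PER1, PER2, PER3, CRY1, CRY2 and NR1D1 these animals lay at least partly inside the range of the others. Without the 3 animals the day 0 SD was 0.30 for ARNTL and 0.19 for DBP, the ratio of the day 0 to the day 14 SD was 1.85 and 0.75, and 5 of 10 clock genes, beside 43.7% of all tested genes, had the larger SD on day 0. The day 0 SD of PER3 and NR1D1 was 0.60 and 0.61 without them, no smaller than with all 15 animals (0.58 and 0.57), and PER3 kept a ratio of 1.93. Its lowest day 0 value came from animal 10 (0.857), whose neutrophil marker sum was among those of the other 12.

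Relations between clock genes across animals were measured within each day, so that differences between days play no part. Over the 45 pairs and 3 days, 15 of 135 Pearson correlations passed (permutation test with 100000 resamples, two-sided, Benjamini-Hochberg over all 135), of which 9 fell on day 0, 4 on day 3 and 2 on day 14. On day 0 ARNTL ran against its repressor NR1D2 (r = −0.82, permutation p = 0.00025, adjusted p = 0.00675, rho = −0.74, p = 0.00221, n = 15), while NR1D2 ran with DBP (r = 0.82, permutation p = 0.00023, adjusted p = 0.00675, rho = 0.69, p = 0.00533). PER3 ran with NR1D1 on day 0 (r = 0.83, permutation p = 0.00033, adjusted p = 0.00733, rho = 0.76, p = 0.00171). With the 2 animals farthest from the median of the first gene left out, r was −0.73, 0.60 and 0.80 for these 3 pairs. ARNTL with NR1D2 gave r = −0.23 on day 3 and 0.15 on day 14 (permutation p = 0.417 and 0.605), with rho = −0.24 and 0.16. CLOCK and NR1D2 correlated on day 3 (r = 0.85, permutation p = 5e-05, adjusted p = 0.00675, rho = 0.81, p = 0.00038) and on day 14 (r = 0.83, permutation p = 0.00017, adjusted p = 0.00675, rho = 0.86, p = 0.00011), with r = 0.73 and 0.88 without 2 animals. PER2 and NR1D1 correlated on day 3 (r = 0.86, permutation p = 0.00018, adjusted p = 0.00675, rho = 0.75, p = 0.00167), and r was 0.63 without 2 animals.

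Besides ARNTL and NR1D2, other pairs that the textbook loop links were read by name. ARNTL with NR1D1 gave r = −0.48, 0.47 and 0.18 on days 0, 3 and 14 (permutation p = 0.0719, 0.0775 and 0.536), with rho = −0.54, 0.26 and 0.11. ARNTL with CLOCK gave r = −0.50, −0.07 and 0.09 (permutation p = 0.0619, 0.811 and 0.761), with rho = −0.44, −0.16 and 0.03. DBP with NR1D1 gave r = 0.33, 0.04 and −0.12 (permutation p = 0.222, 0.887 and 0.680), with rho = 0.31, 0.13 and −0.27. PER1 with PER2 passed on day 3 (r = 0.75, permutation p = 0.00193, adjusted p = 0.0237, n = 15) but rho was 0.44 (p = 0.0990) and r fell to 0.41 without the 2 animals farthest out, so it rests on those. Without animals 7, 11 and 15, 3 of the 135 correlations passed with 12 animals: CLOCK with NR1D2 on days 3 and 14 and PER2 with NR1D1 on day 3. ARNTL with NR1D2 on day 0 was then −0.57 (permutation p = 0.0522, adjusted p = 0.338, n = 12). NR1D2 with DBP on day 0 fell to r = 0.38 (permutation p = 0.225), while PER3 with NR1D1 gave r = 0.83 (permutation p = 0.0041, adjusted p = 0.0793).

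**Figure D4:**
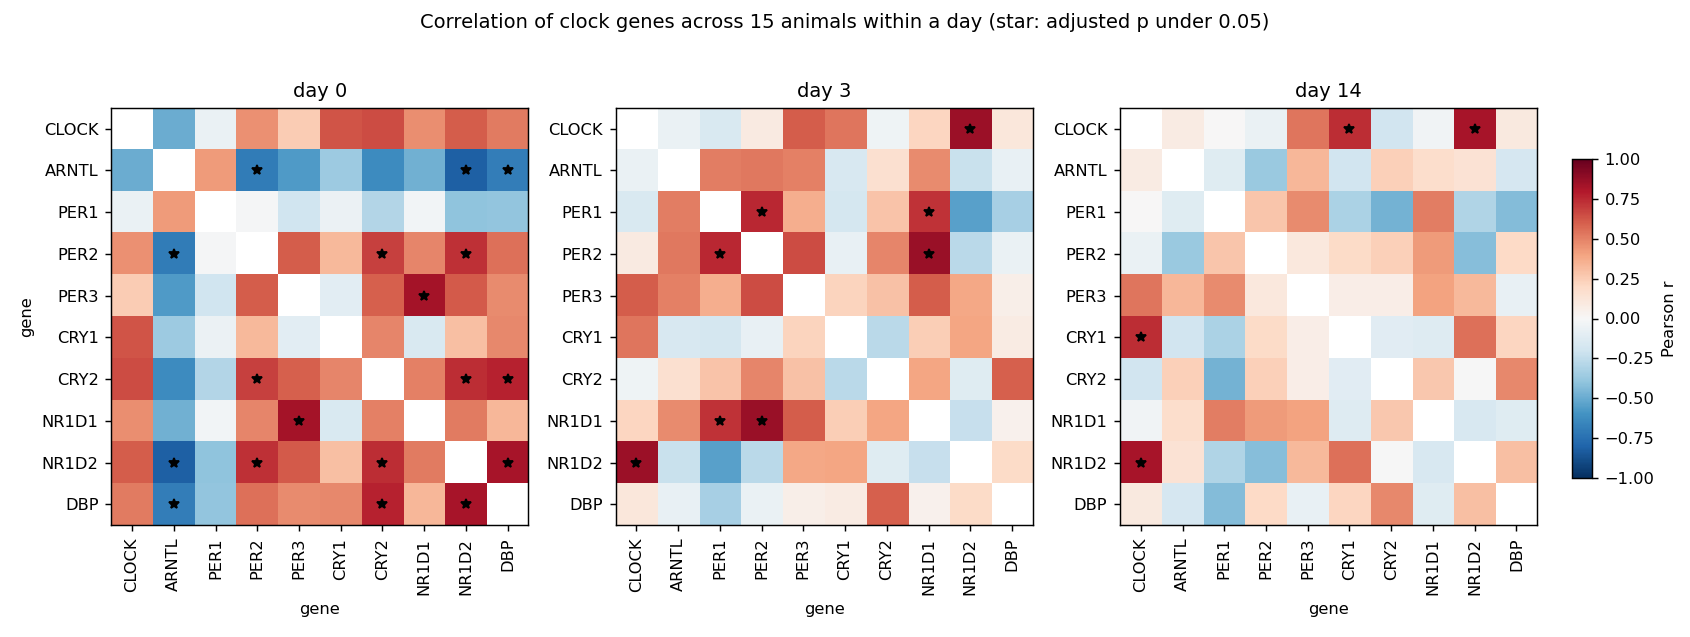
Pearson correlation of each pair of clock genes across 15 animals on days 0, 3 and 14, from blue (−1) to red (1), with stars at an adjusted p under 0.05. Of the 15 starred pairs 9 are on day 0, 3 of which are negative and involve ARNTL, and 2 are on day 14.

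Clock gene levels also ran with the blood cell marker lists, a comparison added after the data were seen. Of 210 correlations (10 genes, 7 lists and 3 days), 25 passed (Pearson, permutation test with 100000 resamples, two-sided, Benjamini-Hochberg over 210), of which 16 were on day 0, 4 on day 3 and 5 on day 14. By Spearman's rho none of the 210 passed, with 45 at an unadjusted p under 0.05 and the lowest adjusted p at 0.0522. On day 0 ARNTL rose with the neutrophil list (r = 0.75, permutation p = 0.00154, adjusted p = 0.0315, rho = 0.65, p = 0.0113, n = 15) and fell with the B cell list (r = −0.83, permutation p = 0.0001, adjusted p = 0.0091, rho = −0.64, p = 0.0119). NR1D2 ran against the neutrophil list (r = −0.79, permutation p = 0.00066, adjusted p = 0.0178, rho = −0.57, p = 0.0297) and with the B cell list (r = 0.82, permutation p = 0.00027, adjusted p = 0.0113, rho = 0.79, p = 0.00057). With the 2 animals farthest from the median marker sum left out, r was 0.60, −0.69, −0.54 and 0.80 for these 4 relations. For the neutrophil list, animals 7, 11 and 15 stood apart on day 0 (4350, 6623 and 6591 against 364 to 1602). Leaving out 2 keeps 1 of them, so it cannot show whether r rests on that group. Marker relations without all 3 are not given here. CLOCK, PER2, CRY1, CRY2 and DBP also ran against the neutrophil list on day 0, with r between −0.79 and −0.70. Without 2 animals r was −0.47 for CRY1 and −0.24 for DBP, whose rho was −0.25 (permutation p = 0.367), so the relation of DBP rests on those animals. The monocyte list ran on day 0 against DBP (r = −0.89, permutation p = 0.00013, adjusted p = 0.0091, rho = −0.62, p = 0.0157), NR1D2 (r = −0.85, permutation p = 4e-05, adjusted p = 0.0084, rho = −0.76, p = 0.00167) and CRY2 (r = −0.81, permutation p = 0.00021, adjusted p = 0.0110, rho = −0.79, p = 0.00082). There r was −0.49, −0.69 and −0.62 without 2 animals. CRY2 also passed with the monocyte list on day 3 (r = −0.71, permutation p = 0.00409, adjusted p = 0.0409, rho = −0.68, p = 0.00708) and day 14 (r = −0.72, permutation p = 0.00305, adjusted p = 0.0377, rho = −0.68, p = 0.00736), with r = −0.67 and −0.54 without 2 animals. On day 3 and day 14 ARNTL and the neutrophil list gave r = 0.23 and 0.03 (permutation p = 0.407 and 0.926).

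**Figure D5:**
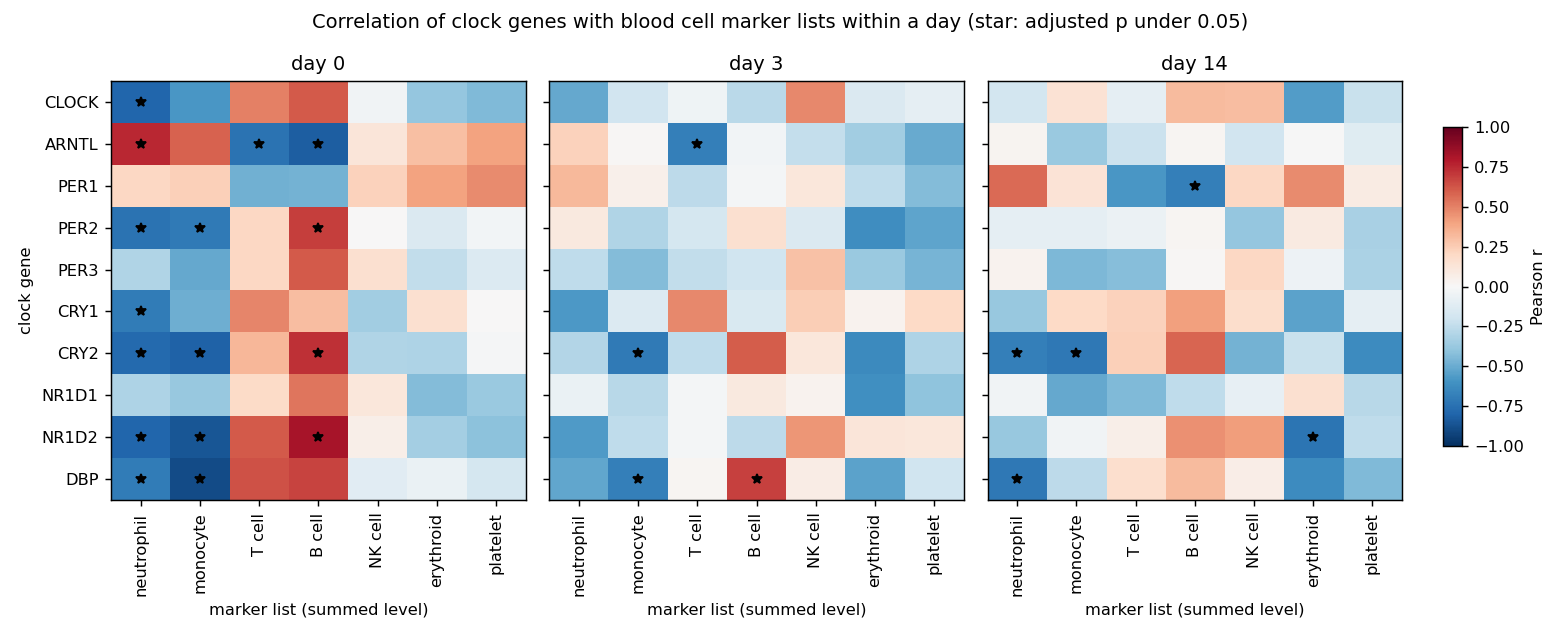
Pearson correlation of each clock gene with the summed level of 7 blood cell marker lists across 15 animals, by day, with stars at an adjusted p under 0.05. On day 0 ARNTL is red for neutrophil markers (0.75) where NR1D2 is blue (−0.79), and the stars thin out from 16 on day 0 to 4 on day 3 and 5 on day 14.

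Other marker lists moved between the days as well. Erythroid markers were called higher for 7 of 8 genes on day 3 and 8 of 8 on day 14, and their summed scaled FPKM climbed, in medians, through 4458, 13068 and 33351 over the 3 days. Platelet markers were higher for 7 of 7 genes on day 3 and 5 of 7 on day 14, and NK cell markers for 3 of 5 on both days. Monocyte markers were lower for 3 of 6 genes on day 14 and higher for 1 on day 3, T cell markers lower for 1 of 6 on day 3 and higher for 2 on day 14, and B cell markers lower for 1 of 4 on day 14. From day 3 to day 14, when PER2 and CRY2 fell, 5 of 6 monocyte, 5 of 7 platelet and 2 of 4 B cell markers were lower, 6 of 8 erythroid and 3 of 6 T cell markers were higher, and limma called 0 of 9 neutrophil markers, with 1 at an unadjusted p under 0.05. The part of these lists in the changes of the clock genes was not tested.

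Of 24 further clock genes listed, 22 were found by symbol and 20 were tested; FBXL21 and USP2 were below the filter on low values. On day 3, 5 of the 20 (25%) were called, 4 higher and 1 lower, and on day 14 10 of 20 (50%), 7 higher and 3 lower. Between them 3 of 20 (15%) were called. The shares of all genes were 19.2%, 44.0% and 23.7%. With RNA integrity as a covariate, 4 of the 20 were called on day 14 against day 0, beside 21.7% of all genes. Between day 3 and day 14 it was 1 of 20, beside 9.80%. BHLHE40 (DEC1), a repressor that competes for E-boxes, was higher on day 3 in all 15 animals, by 0.54 on the log2 scale (SE 0.10, limma adjusted p = 0.000598), and on day 14 in 14 of 15, by 0.53 (SE 0.10, limma adjusted p = 8.84e-05). Its scaled FPKM ran from 2.97 to 11.3 (median 7.53) on day 0, from 7.36 to 19.2 (median 11.1) on day 3 and from 7.42 to 17.2 (median 10.8) on day 14. TEF, a relative of DBP, was higher by 0.43 and 0.44 (limma adjusted p = 0.0102 and 0.00324), while DBP itself was not called and the difference between them was not tested.

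Among the genes that modify clock proteins, CSNK1E, a kinase that marks PER proteins for decay, was lower by −0.56 on day 3 and by −0.87 on day 14 (limma adjusted p = 0.0265 and 0.000277), with median scaled FPKM of 3.79, 2.73 and 2.07 on days 0, 3 and 14. The kinase GSK3B (−0.26) and the F-box gene FBXW11 (−0.23) were lower on day 14. The FBXW11 relative BTRC (0.39), the ARNTL relative ARNTL2 (0.38) and the DEC1 relative BHLHE41 (0.33) were higher. For all of these limma adjusted p lay between 0.00883 and 0.0209. ARNTL2 rests on only 5 to 53 fragments per library. Before scaling, its mean deposited FPKM was 0.350, 0.315 and 0.392 on days 0, 3 and 14. TIMELESS, best known in DNA replication, was higher on day 3 (0.48, limma adjusted p = 0.0132), and its difference between day 3 and day 14 was −0.31 (limma adjusted p = 0.0958). Between day 3 and day 14, ARNTL2 was higher (0.46) and FBXW11 lower (−0.20), as was CIPC (−0.27, limma adjusted p = 0.0323), a CLOCK inhibitor that fell outside the naming rule and was named after its values were seen. Without animals 7, 11 and 15 the calls on day 3 fell from 5 to 2 (BHLHE40 and TIMELESS), beside 10.6% of all genes, and those on day 14 from 10 to 6, among them BHLHE40 and CSNK1E, beside 36.8%.

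PER1 is also a direct target of the glucocorticoid receptor, so 9 glucocorticoid response genes were read beside it. On day 3, when PER1 rose, ZBTB16 rose by 0.67 on the log2 scale (limma adjusted p = 0.0140), while SGK1 (−0.80), DUSP1 (−0.72) and the receptor gene NR3C1 (−0.39) fell (limma adjusted p = 0.000289, 0.0386 and 0.00163). That is 4 of 9 genes (44.4%), beside 19.2% of all genes, 1 higher and 3 lower. NR3C1 is the receptor itself and was not listed as a target. Whether glucocorticoids had a part in the change of PER1 was not tested. On day 14, SGK1, DUSP1 and NR3C1 were lower than on day 0, by −0.65, −0.94 and −0.38, and no gene of the list was higher, so 3 of 9 (33.3%) were called beside 44.0% of all genes. FKBP5 and TSC22D3, which glucocorticoids induce in blood cells, were not called on day 3, with log2 differences of 0.32 (limma adjusted p = 0.245) and −0.03 (limma adjusted p = 0.904). FKBP5 ran from 17.1 to 103.2 scaled FPKM (median 26.5, highest in animal 15) on day 0. Its range was 24.3 to 67.7 (median 40.7) on day 3. The day 0 maxima of TSC22D3 (302) and DUSP1 (634) were in animal 11. Between day 3 and day 14 limma called 0 of the 9, beside 23.7% of all genes, with 2 at an unadjusted p under 0.05, and voom on the recovered fragments also called 0.

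The genes whose levels followed ARNTL, PER2 and CRY2 most closely across animals were not clock genes. Over the 45 libraries, after each day's mean was subtracted, ARNTL was closest to RGL2, MAPK14 and ADPRH (r = 0.89, 0.88 and 0.88 among 10938 genes with at least 5 CPM), the fragments of a gene scaled to library size. PER2 was closest to URB1, PPRC1 and DNHD1 (r = 0.86, 0.85 and 0.84) and CRY2 to SUN1, WDR6 and TRIM4 (r = 0.90, 0.89 and 0.89). PER2 and NR1D1 lay below 5 CPM and so were not among the ranked genes. Of the other clock genes, the nearest to ARNTL was PER1, at rank 3148 with r = 0.23. The nearest to CRY2 was DBP, at rank 492 with r = 0.66. CLOCK had a clock gene closer by, NR1D2 at rank 15 (r = 0.74), as did CRY1, with CLOCK at rank 15 (r = 0.60). These values describe likeness over libraries that share animals and the scaling, and carry no test.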

How the data were processed

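Whole-blood RNA of 15 animals on 3 days was sequenced as stranded paired-end libraries after removal of ribosomal and globin RNA. The authors converted reads with bcl2fastq 2.17, a step that the paper's methods do not name. Per those methods, they aligned reads with STAR to Chlorocebus_sabeus 1.1 and used HTSeq for counting. The authors deposited FPKM, 1 table per sample, and each value above 0 was a whole multiple of 1 fragment's worth within 0.05 fragments (100% of values), so fragment numbers were recovered. Genes with over 0.5 CPM in at least 3 samples were kept, a minimum of 6.61 to 15.7 fragments depending on the library. FPKM were divided by TMM factors, 0.1 was added, and log2 values were fitted with limma 3.58.1 (R 4.3.3) with the animal as a block, since the labels name each sample's animal. The correlation of deviations from the day means averaged 0.33 within animals and −0.04 between them. Fold changes on the log2(scaled FPKM + 0.1) scale understate changes of low genes. Whether fragments were counted by strand is not given in the sources used here. The methods were tested on simulated data. The clock genes, lists and tests were chosen with earlier results of these data known. All 10 clock genes were named, as were called genes of the further lists (at most 10 a list), the 6 pairs with the lowest p and 4 set pairs, and the 3 genes most like each of the clock genes with the lowest adjusted p, and some results that this rule selects are not reported here. Alternatives changed the block, scaling, pseudocount, filter, moderation, RNA integrity covariate, animals, or used voom on recovered fragments. Promoter sequences were not analysed here.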

Additional observations from a re-analysis of the deposited data

How the results depend on the processing

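The labels name the animal behind each sample, and the fit without the animal as a replicate block called 2, 3 and 1 of the 10 clock genes (day 3 against day 0, day 14 against day 0, day 14 against day 3; 12.2, 36.0 and 13.4% of all genes), 4, 7 and 1 of the further clock genes and 3, 3 and 0 of the glucocorticoid genes. Single-gene values under other settings, both planned and chosen after seeing the data, numbered 804. Of these, 719 kept direction and side of the threshold, 35 lost the call, 19 gained one and 31 changed sign. Leaving out 1 animal gave 1 to 3, 1 to 3 and 2 to 4 clock genes (14.6 to 19.7, 39.7 to 44.7 and 14.2 to 27.3% of all genes), 3 to 7, 9 to 12 and 1 to 5 further clock genes, and 3 to 4, 3 and 0 glucocorticoid genes. Without scaling, day 14 calls rose to 8 clock genes against each earlier day (59.2% of all genes against day 0 and 51.1% against day 3), to 8 further clock genes against day 3 and to 8 glucocorticoid genes against each earlier day, further clock genes on day 3 fell to 2, and 89 gene pairs and 61 marker relations passed. By Spearman's rho, 7 pairs and 0 marker relations passed. Between day 3 and day 14, a mean of at least 5 CPM (33.4% of all genes) left 1 clock gene, CRY2. That filter leaves PER2 and NR1D1 out. The RNA integrity covariate (9.80%) also left CRY2 alone there. It left 1 further clock gene there and 4 on day 14 against day 0 (21.7%). The settings named so far were planned, and the next were chosen after seeing the data. Without the day 3 library of animal 8, 1 clock gene, ARNTL, was called on day 3 (19.5% of all genes). Without animals 7, 11 and 15, 4 clock genes were called between day 3 and day 14 (27.8% of all genes), further clock genes numbered 2, 6 and 6 (10.6, 36.8 and 27.8%), glucocorticoid genes 1 (FKBP5) between day 3 and day 14, and 3 pairs passed. The cause of these shifts was not tested.

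Signs changed only for differences that had not passed. Without scaling, day 14 against day 0 gave −0.32 for PER3, −0.38 for CRY1 and −0.40 for NR1D2, day 14 against day 3 gave −0.32 for CRY1 and −0.30 for NR1D2, and DBP on day 3 was −0.030. Without animals 7, 11 and 15, day 14 against day 0 gave −0.0016 for PER3, −0.050 for CRY1 and −0.092 for NR1D2, and DBP on day 3 was −0.13. With the RNA integrity covariate, PER3 was 0.0058 between day 3 and day 14, NR1D1 0.062 on day 14 and DBP −0.026 on day 3. DBP on day 3 was −0.0038 with median-of-ratios scaling and −0.0060 with voom. With 1 animal left out, CRY1 ran from −0.066 to 0.032 and DBP from −0.047 to 0.068 on day 3, and on day 14 against day 0 CRY2 ran from −0.083 to 0.0067 and NR1D2 from −0.019 to 0.093. Of the 10 clock genes, depth limits NR1D1 most, at 10 to 150 fragments per library. With the animal as a block, limma p-values measure the spread of changes within animals, each sampled once on each day. Permutation and sign-flip p-values measure the spread between animals.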
